A study of Mus musculus with 4 samples.

Results

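The starting cells of a reprogramming study, adult mouse cardiac mesenchymal progenitors (CMPs), were described from the single array that measured them untreated. This is 1 of the 4 arrays of the series. The CMPs were Sca-1+ cells isolated from the atria of hearts of adult C57BL/6 mice. They were grown on collagen I in medium with serum and basic FGF. The array came from cells without treatment at day 0, and the other 3 arrays held CMPs transduced with Sendai virus carrying Oct4, Sox2, Klf4 and c-Myc (OSKM) at days 4, 6 and 8. The study asked what these cells become after OSKM. The profile of the untreated cells gives the state from which they started, and the later days enter below only as a check of whether a probe gave signal on any array.

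Cardiac mesenchymal progenitors are stromal cells of the adult heart. They are usually identified by Sca-1, a surface protein encoded by Ly6a, and they grow in culture as spindle-shaped cells. Cultured stromal cells of many organs share a programme of collagen and fibronectin secretion, actin stress fibres and growth factor receptors, and those of the heart often keep some of the transcription factors that patterned the heart in the embryo, such as Gata4, Tbx5 and Hand2. Markers of working muscle, such as myosin heavy chains and troponins, belong to cardiomyocytes.

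Signals were Cy3 intensities after background subtraction, in the scanner's arbitrary units, and were averaged as log2 over the spots of a probe and then over the probes of a gene. A gene was taken as well above background, or detected, when the scanner software made that call for all of its probes, and as not well above background, or dim, when it made it for none. Of 22229 named genes, 13675 (61.5%) were well above background, 6845 (30.8%) were not, and the probes of 1709 (7.7%) disagreed. The share was 63.8% of 20140 protein-coding genes and 33.8% of 1561 long noncoding RNA genes. Of the 6845 dim genes, 1276 (18.6%) had a probe that was well above background on another array of the series, so that for those genes the probe itself is known to work. The median gene had a signal of 80.67, the top 25% of genes began at 1054 and the top 10% at 5273, and 348 genes carried 50% of the summed signal.

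The order of genes on an array follows the affinity of each probe as well as the amount of RNA. Spots of the same probe differed by a median SD of 0.064 on the log2 scale (282 probes with several spots), and the error model of the software gave a median of 0.14 for a gene. Probes for the same gene differed far more, by a median SD of 1.61 and a 90th percentile of 3.88. This covers 4155 genes with several probes, all well above background. It leaves out the 24.4% of 6993 genes with several probes whose probes disagreed on the call. From the median SD, signals of 2 genes with 1 probe each would have to lie 4.56 log2 units apart, or 23.5-fold, to exceed 2 SD. For genes with a wider spread the limit is larger. The percentiles below therefore place genes roughly, and neighbours in any order of signals cannot be told apart. There was 1 array per condition, so no value has an error between cultures and no test was made.

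**Figure D1:**
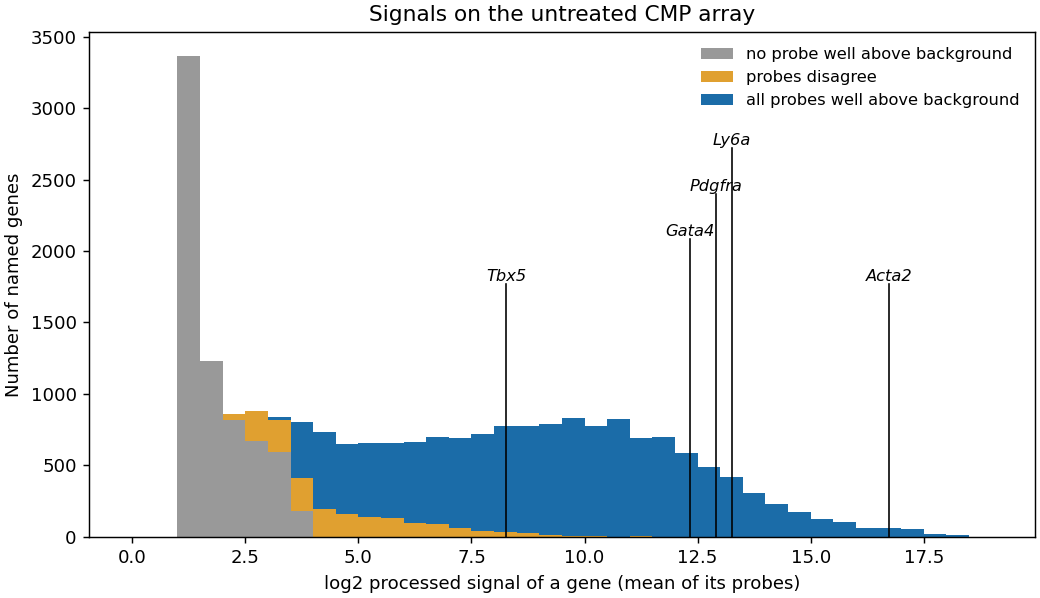
Number of named genes by log2 processed signal on the untreated CMP array, stacked by whether all, some or none of their probes were well above background. Vertical lines mark the 5 genes used to check the label, which run from 8.27 (Tbx5) to 16.74 (Acta2).

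All 5 genes used to check the label were well above background, a call that 61.5% of all genes passed. The call alone therefore says little about what the cells were. Acta2, smooth muscle alpha-actin, had a log2 signal of 16.74 ± 0.044 (SD between 10 spots of its probe at mm9 chr19:34316060-34316119). Pdgfra, a receptor for platelet-derived growth factors that marks mesenchymal cells, had 12.91 ± 0.062 (SD between 10 spots at mm9 chr5:75593888-75593947). Ly6a, the gene of the Sca-1 protein that the label gives to the cells, had 13.26 with an error of 0.14 by the error model (mm9 chr15:74825553-74825612). The cardiac transcription factors Gata4 and Tbx5 had 12.33 (mm9 chr14:63817858-63817917) and 8.27 (mm9 chr5:120334087-120334146). Of the 5, only Tbx5 lay outside the top 25% of genes. The same probes were well above background on the other 3 arrays too.

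The brightest genes on the array were those of protein synthesis, the cytoskeleton and the stroma. S100a6, a calcium-binding protein of proliferating and stromal cells, had the highest signal of all (log2 18.64). Actb, the cytoskeletal beta-actin, followed at 18.37, and ribosomal protein genes such as Rpl35, Rps20, Rps14 and Rpl37a lay between 18.21 and 18.36. Mgp, a matrix protein that inhibits calcification, had 18.18, the fibroblast-associated S100a4 had 18.06 from 2 probes, and Anxa2, a membrane-binding annexin, had 17.87. Exosc2, Rack1, Ppia, mitochondrial COX1, the pseudogene Gm2000, Fau, Rpl37, Rps12, Rplp2 and Rpl41 were also among the 20 brightest. Among the 100 brightest genes were 34 ribosomal protein genes and 17 pseudogenes. Pseudogenes can share sequence with their parent genes, so that their signals cannot be assigned.

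Genes with signal had promoters rich in CpG dinucleotides more often than genes without. Vertebrate genomes are depleted of CpG except in CpG islands, which cover the promoters of most housekeeping and many developmental genes, whereas many tissue-restricted genes have CpG-poor promoters. The ratio of observed to expected CpG was computed in the RefSeq promoter windows (build GRCm38.p6, 250 bases before to 50 after the transcription start) for 14571 genes with a single window. Its median was 0.75 in genes well above background, 0.57 where probes disagreed and 0.22 in dim genes. A ratio of at least 0.6 was found in 67.8%, 47.9% and 16% of these, compared with 49.1% of all. Across 10 bins of genes by signal the median rose from 0.21 in the dimmest to 0.80 in the brightest, and it lay between 0.77 and 0.80 from bin 7 upward. The motif TATAAA, searched anywhere in the window on both strands, went the other way. It was present in 8.7% of windows of genes well above background, in 11.8% where probes disagreed and in 22.3% of windows of dim genes. The share was 13.6% among all 32851 promoter windows. The motif holds only A and T, and the median GC content of windows was 60.3% in genes well above background and 48.0% in dim genes. Whether base composition accounts for the difference was not tested.

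Signal and CpG content did not always go together, and 4 promoters show the combinations. In each, the 250 bases before the start are printed 5′ to 3′ on the gene's strand with CpG dinucleotides in capitals. Acta2 (chr19:34255374-34255623, minus strand) was bright, with a log2 signal of 16.74, from a CpG-poor window with a ratio of 0.27 and 4 CpGs in the stretch shown. Cd81 (chr7:143052500-143052749, plus strand), the gene of a tetraspanin of the stromal surface, was bright at 16.53 from a CpG-rich window with a ratio of 0.71 and 16 CpGs shown. Myh6 (chr14:54966608-54966857, minus strand), the alpha-myosin heavy chain of cardiomyocytes, was not well above background and had a ratio of 0.08 with 2 CpGs shown. Hoxd13 (chr2:74667975-74668224, plus strand), a homeobox gene of the distal limb and hindgut, was not well above background either, with a ratio of 0.90 and 31 CpGs shown.
Acta2: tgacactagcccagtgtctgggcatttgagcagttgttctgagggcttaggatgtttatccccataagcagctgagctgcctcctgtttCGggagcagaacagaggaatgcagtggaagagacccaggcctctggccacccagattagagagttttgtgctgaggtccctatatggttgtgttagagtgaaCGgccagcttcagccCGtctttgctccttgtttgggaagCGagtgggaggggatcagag
Cd81: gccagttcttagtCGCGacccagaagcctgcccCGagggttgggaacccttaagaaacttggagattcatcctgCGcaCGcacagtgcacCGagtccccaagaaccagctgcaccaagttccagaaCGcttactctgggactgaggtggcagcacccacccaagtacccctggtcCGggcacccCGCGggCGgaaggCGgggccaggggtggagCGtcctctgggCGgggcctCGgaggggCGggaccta
Myh6: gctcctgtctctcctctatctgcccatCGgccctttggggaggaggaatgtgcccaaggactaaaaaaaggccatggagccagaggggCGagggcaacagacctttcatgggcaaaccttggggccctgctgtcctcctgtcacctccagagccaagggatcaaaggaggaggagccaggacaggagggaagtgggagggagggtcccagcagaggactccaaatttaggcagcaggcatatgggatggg
Hoxd13: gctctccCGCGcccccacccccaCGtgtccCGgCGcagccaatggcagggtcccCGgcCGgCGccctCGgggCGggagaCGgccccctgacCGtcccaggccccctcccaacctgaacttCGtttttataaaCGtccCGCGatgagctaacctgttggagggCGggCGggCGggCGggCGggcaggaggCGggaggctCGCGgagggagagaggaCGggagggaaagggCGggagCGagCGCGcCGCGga
In all, 1272 genes were well above background with a ratio under 0.3, like Acta2, and 777 were dim with a ratio of at least 0.6, like Hoxd13. The gene lists used below were spread along this scale. The median ratio was 0.26 for both the fibroblast list (14 genes with a window) and the cardiomyocyte list (19), 0.25 for matrix metalloproteinases (15) and 0.24 for leukocyte genes (13). It was 0.93 for the cell cycle list (19), 0.94 for adipogenic regulators (9) and 0.75 for cardiac transcription factors (14).

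**Figure D2:**
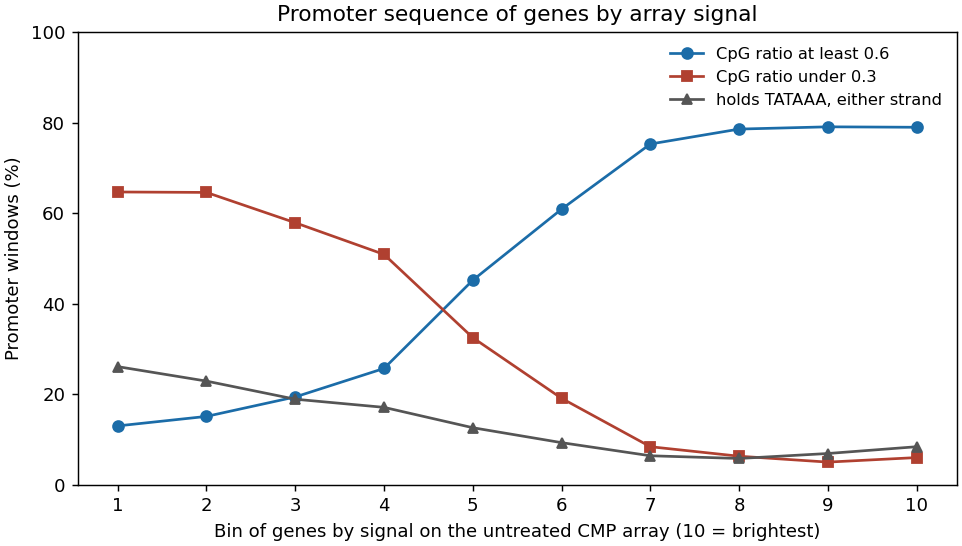
Share of promoter windows (%) with a CpG ratio of at least 0.6, with a ratio under 0.3 and with TATAAA, in 10 bins of genes by signal on the untreated CMP array (10 is the brightest, 1457 or 1458 genes each). The share with a high ratio runs from 13% in the dimmest bin to 79.0% in the brightest, and that with TATAAA from 26.1% to 8.4%.

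Stromal marker genes were well above background nearly without exception and were bright. Of 25 fibroblast genes 24 were well above background, compared with 61.5% of all genes, and 22 lay in the top 25% of signals. Their median percentile was 96.1. S100a4 (18.06), the type I collagen chain Col1a2 (17.75), fibronectin Fn1 (17.72), the matrix protein Fbln2 (17.47) and the intermediate filament vimentin Vim (17.45) led the list. Dpp4, a surface peptidase of some fibroblast populations, was the exception at 2.83, and none of the 4 arrays had its probe well above background. Of 21 mesenchymal surface genes 20 were well above background, with a median percentile of 89.0. The tetraspanins Cd63 (17.17), Cd81 (16.53) and Cd9 (14.46), the glycoprotein Thy1 (16.68) and the adhesion molecule Vcam1 (13.80 from probes at 12.06 and 15.54) were the brightest. Pdgfra belongs to this list and to the fibroblast list.

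Several surface genes by which mesenchymal cells are sorted gave less clear values. Cd34, a sialomucin of progenitor and stromal cells, had 12.16 as the mean of probes at 8.98 and 15.34. Nt5e, which encodes the ectonucleotidase CD73, had 6.24, near the middle of all genes (percentile 49.5). Cd44, the hyaluronan receptor, was the gene of this list whose probes disagreed, with 4 probes from 3.42 to 12.72.

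Most smooth muscle genes were bright. Of 20 genes 17 were well above background and 14 were in the top 25% (median percentile 85.4). Tagln (16.81), an actin-binding protein, Acta2 (16.74), Tagln2 (15.75), the regulatory light chain Myl9 (15.29) and the tropomyosin Tpm2 (14.01) led. Myh11, the smooth muscle myosin heavy chain, did not pass the call on any of the 4 arrays (2.60). Des, the intermediate filament desmin, was dim on this array at 3.33, but its probe gave signal on all 3 other arrays. Myocd, the coactivator that drives the mature smooth muscle programme, was also dim at 3.15. Of 11 pericyte genes 7 (63.6%) were well above background, about the share of all genes (61.5%). The receptors Pdgfrb (13.47) and Notch3 (12.66), Ndufa4l2 (11.94), Mcam (11.51) and the proteoglycan Cspg4 (10.38) led, while the potassium channel genes Kcnj8 and Abcc9, the matrix gene Vtn and Des were not. In RNA from a whole culture, as here, fewer cells of a type and less RNA per cell cannot be told apart.

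**Figure D3:**
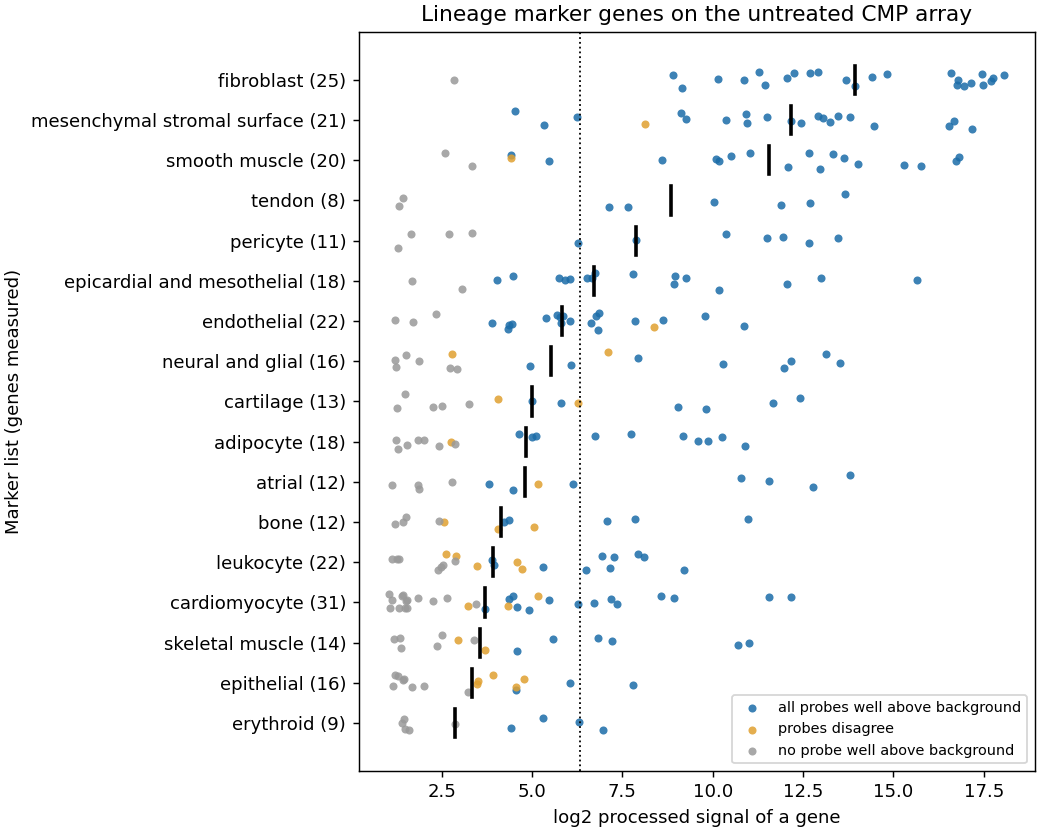
Log2 processed signal of the members of each lineage marker list on the untreated CMP array, with 1 point per gene coloured by its background call. Black bars are list medians and the dotted line is the median of all named genes; medians run from 2.87 (erythroid) to 13.95 (fibroblast).

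Cardiomyocyte genes were detected less often than genes in general. Of 31 genes 14 (45.2%) were well above background, compared with 61.5% of all genes, 14 were not and the probes of 3 disagreed, and the median percentile was 33.7. The cardiac troponin Tnnt2 (12.17) and the embryonic and atrial light chain Myl4 (11.56) were the genes of this list in the top 25%. The calcium pump Atp2a2 (8.93) and Cox6a2 (7.34) were among the next. Dim genes included Myh6 (2.26 from 2 probes), the troponin Tnni3 (3.46), cardiac actin Actc1 (1.54), alpha-actinin Actn2 (1.48), titin Ttn (4 probes) and the light chain Myl7 (1.85). Probes of 6 of the 14 dim genes were well above background on another array, those of Myh6 and Tnni3 on all 3. Of 12 atrial genes 7 were well above background, with Dkk3 (13.80), a secreted Wnt regulator, and Nr2f1 (12.79), a nuclear receptor, the brightest. Kcnj3 and Sln were not.

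Genes of the epicardium, the outer layer of the heart that gives rise to many cardiac fibroblasts, were detected over a wide range of signals. Of 18 epicardial and mesothelial genes 16 were well above background, but 4 were in the top 25% and the median percentile was 52.2. The retinaldehyde dehydrogenases Aldh1a1 (15.65) and Aldh1a2 (a linear signal of 8191) and the factors Tcf21 (12.07) and Tbx18 (10.16), both used to trace epicardial derivatives, were bright. The keratin gene Krt19 had 9.26. The mesothelial genes Muc16 and Krt8 were not well above background.

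Endothelial genes were detected but faint. Of 22 genes 18 were well above background, while 1, Egfl7 (10.87), was in the top 25%, and the median percentile was 47.1. Fli1 (9.77), Kdr (8.61 from probes at 5.06 and 12.16), Mmrn2 (7.84) and the endothelial cadherin Cdh5 (6.87) followed. Sox17, Erg and Prox1, factors of arterial, general and lymphatic endothelium, were not well above background on any array. Of 22 leukocyte genes 10 (45.5%) were well above background, compared with 61.5% of all genes. None was in the top 25%, and the median percentile was 35.3. The count was 16 under the software's weaker call of a positive and significant signal, which 17305 of all 22229 named genes passed. The brightest were the T cell gene Cd3e (9.20), Csf1r (8.10), Itgam (7.93 from 3 probes between 4.45 and 13.75), Cd14 (7.26) and Lyz2 (7.16). The macrophage genes Aif1 and Cx3cr1, the myeloid factor Spi1 and Laptm5 were not well above background on any array. Of 9 erythroid genes 4 (44.4%) were well above background, with Epor (6.98) the brightest and Gata1, Klf1, Alas2 and Hbb-bt dim.

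Epithelial genes were seldom detected when all probes had to pass, with 3 of 16 well above background and none in the top 25%. These were Krt18 (7.80), Esrp2 (6.05) and Krt14 (4.56), and the count was 8 when any probe of a gene sufficed. E-cadherin Cdh1 (1.42), Epcam (1.47), Krt8, Cldn3, Grhl2 and Ovol1 were not. Of 25 claudins, the proteins of tight junctions, 6 were well above background, and of 49 keratins 16 were, with no keratin in the top 25%. Under the weaker call, which 17305 of all 22229 named genes passed, the counts were 17 claudins and 33 keratins. Of 14 skeletal muscle genes 6 (42.9%) were well above background, compared with 61.5% of all genes. Skeletal actin Acta1 (a linear signal of 2049) and caveolin Cav3 (1658) were in the top 25%, and the regulator Pax3 had a log2 signal of 7.21. The regulators Myod1, Myog, Myf5, Myf6 and Pax7 and the embryonic myosin gene Myh3 were dim. Of 16 neural and glial genes 8 were well above background. The brightest were Snap25 (13.52) and Syp (11.96), genes of secretory vesicles, the tubulin Tubb3 (13.14), the intermediate filament nestin Nes (12.17) and the calcium-binding S100b (10.28), while the neural factors Pax6, Olig2 and Foxd3 were not.

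Regulators of adipogenesis were all detected, and genes of the adipocyte itself about as often as genes in general. The study followed the cells into this lineage after OSKM. All 20 genes of the list of preadipocyte and adipogenic regulators were well above background. Cebpd (15.98) and Cebpb (13.53), which act early in adipogenesis, and Klf4 (13.04) were in the top 10%, and the glucocorticoid receptor Nr3c1 (11.02) and Ebf3 (10.52) came next. The later regulators Pparg and Cebpa had 9.59 and 7.73. Of 18 adipocyte genes 10 (55.6%, compared with 61.5% of all genes) were well above background, led by the lipase Pnpla2 (10.89), lipoprotein lipase Lpl (10.25), the fatty acid binding protein Fabp4 (9.88), Pparg and Dgat2 (9.18). The adipokine genes Adipoq (2.88), Lep and Cfd and the lipid droplet genes Plin1 (2.43) and Cidec were dim, as was the fatty acid transporter Cd36. Probes for 6 of the 7 dim genes of this list gave signal on another array. The fatty acid synthase Fasn had 8.01.

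Other mesenchymal lineages gave a similar mixture. Of 13 cartilage genes 6 were well above background, among them Col2a1 (12.40), the collagen of cartilage, its regulator Sox9 (11.66) and Col11a1 (9.80), while Hapln1, Matn1, Matn3, Sox6 and Col10a1 were not. Of 12 bone genes 5 were, led by osteopontin Spp1 (10.97) and alkaline phosphatase Alpl (7.86), while Ibsp, Dmp1, Sost and Phex were not. Of 8 tendon genes 6 were, with Col14a1 (12.71), Fmod (11.89) and the tendon factor Scx (7.65), but Tnmd and Thbs4 were not.

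Transcription factors of the heart field were nearly all detected. Of 30 genes 27 were well above background and 10 were in the top 25% (median percentile 65.1). Gata4 (12.33) and Gata6 (a linear signal of 4084), Foxc2 (11.67), Tbx20 (11.56 from 3 probes between 10.54 and 13.46) and Mrtfa (11.39), a coactivator of serum response factor, were the brightest. Mef2c, which the study names as a cardiac gene of CMPs, had 6.03 (percentile 48.2). Mesp1, the factor of the earliest cardiac mesoderm, was dim on all 4 arrays. Of the 6 Gata factors 5 were well above background, and the exception was the erythroid Gata1. All 4 Tead factors, all 6 Irx factors and 11 of 17 T-box factors (64.7%, against 61.5% of all genes) were also well above background.

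Mesenchymal and epithelial-to-mesenchymal transition factors were detected too. Of 18 genes 17 were well above background and 10 were in the top 25%, with Snai1 (13.03), Snai2 (12.47), Zeb1 (11.97), Twist2 (11.75) and Prrx1 (11.45) the brightest. Over all lists and families of transcription factors, 205 of 326 genes were well above background, close to the 61.5% of all genes. The brightest 10 were Cebpd, Klf6 (14.29), Nr2f6 (13.75), Egr1 (13.66), Klf3 (13.60), Nr4a1 (13.55), Jund (13.55), Cebpb, Jun (13.34) and Rarg (13.33). Egr1, Nr4a1 and Jun are immediate early genes, which respond within minutes to growth factors. Of 14 immediate early and AP-1 genes 13 were well above background, including Fos at 11.78, and Egr3 was the exception.

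Of 21 pluripotency genes 7 were well above background, or 12 when any probe sufficed, 9 were dim, and the median percentile was 30.6. Of the 4 reprogramming factors, Klf4 (13.04) and Myc (9.77) gave signal in the untreated cells, whereas Pou5f1 (3.27) and Sox2 (1.20) did not. The probes for Pou5f1 and Sox2 were not well above background on any array, the OSKM arrays included. These probes are therefore not shown to work here. The study's primers for OSKM were for the human genes, and whether the mouse probes would detect the transduced factors is not known. Klf2 (13.20), Dnmt3l (8.81) and Lin28a (7.14) were the other members with the highest signals, and Zfp42, Lin28b, Fgf4 and Dppa3 were dim.

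Hox genes record position along the body axis, and those detected here lay in paralog groups 1 to 9 with 1 exception. Of 39 Hox genes 19 were well above background, where the share over all genes was 61.5%, and none was in the top 25%. By paralog group, 7 of 12 genes of groups 1 to 4 and 11 of 15 genes of groups 5 to 9 were well above background, with median log2 signals of 5.96 and 4.57. Of the 12 genes of groups 10 to 13, 1 was (Hoxc12, 4.40), and the median was 1.54. By cluster, the counts were 7 of 11 in Hoxa, 7 of 10 in Hoxb, 4 of 9 in Hoxc and 1 of 9 in Hoxd. Hoxb4 (9.74), Hoxa3 (9.45) and Hoxb2 (8.94) were the brightest. Hoxd8 (5.35) was the 1 detected gene of its cluster. Hoxb1, Hoxd1, Hoxd3 and Hoxd4, of groups 1 to 4, were dim. Under the weaker call the counts by cluster rose to 7 in Hoxc and 4 in Hoxd, and counts by paralog group were not made. No dim Hox gene had a probe well above background on any other array, so the probes of the posterior and Hoxd genes are not shown to work in this series. Among the cofactors of Hox proteins, 6 of 7 Meis and Pbx genes were well above background, with Meis1 at 12.02 and Meis2 at 11.57.

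Among receptor and adhesion genes, 142 of 211 were well above background, where the share over all genes was 61.5%. Chains of the IL-6 receptor family were prominent among the brightest. Il11ra1 (16.20), the receptor chain for interleukin-11, Osmr (14.37), the oncostatin M receptor, and their shared signalling chain Il6st (14.11) were 3 of the 10 brightest. Of 12 genes of the family 10 were well above background. The receptor chain genes were detected except Cntfr, and of the ligands Il6 (10.60), Clcf1, Ctf1, Il11 and Lif were, while Osm was not. Of 54 receptor tyrosine kinases 36 (66.7%) were well above background and 12 (22.2%) were in the top 25%. Axl (14.44), a receptor for Gas6, Ephb3 (13.62), Pdgfrb (13.47), Pdgfra (12.91) and Igf1r (12.70) led, and Erbb3, Erbb4, Insrr, Ret and Ltk were not well above background.

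Receptors of the morphogen pathways were present in part, as were genes in general, of which 61.5% were well above background. Of 14 TGF-beta and BMP receptors 10 were well above background, led by Acvrl1 (13.62), its co-receptor Eng (13.05) and Tgfbr2 (11.54 from probes at 9.06 and 14.01). Tgfbr1, the partner of Tgfbr2, gave no settled call, since its 4 probes ran from 1.16 to 10.72. Of 20 Wnt receptors 17 were well above background, with Ryk (12.28), Fzd1 (12.21) and Fzd4 (11.40) the brightest and Lgr5, Fzd10 and Rnf43 dim. Of 14 Notch pathway genes 10 were, with Notch3 (12.66), the ligand Jag1 (12.23) and the target Heyl (10.62). Of 13 Hedgehog pathway genes 8 were (61.5%, the share of all genes), including the transducer Smo (11.87) and Gli3 (11.50). The ligands Shh and Ihh were dim. Of 38 G protein-coupled receptors for vasoactive and lipid ligands 24 were well above background, about the share of all genes. The thrombin receptor F2r (14.94) led, followed by Lpar6 (11.45) and S1pr2 (11.22), together with the natriuretic peptide receptor Npr2 (12.37) of the same list. The angiotensin receptors Agtr1b and Agtr2 and the adrenergic receptor Adra1a were not well above background.

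Adhesion genes included bright integrins and a bright cadherin. Of 26 integrin subunits 20 were well above background and 6 (23.1%) were in the top 25%, with Itgb5 (15.41) and the collagen receptor chain Itga11 (14.57) the brightest and Itgb1, the shared beta chain, at 12.45. The leukocyte subunits Itgax, Itgae, Itgad and Itgb7 were dim. Of 23 cadherins 10 (43.5%) were well above background, or 16 under the weaker call, which 17305 of all 22229 named genes passed. Cdh2 (15.02), N-cadherin, was the 1 cadherin in the top 25%, from probes at 14.72 and 15.31.

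**Figure D4:**
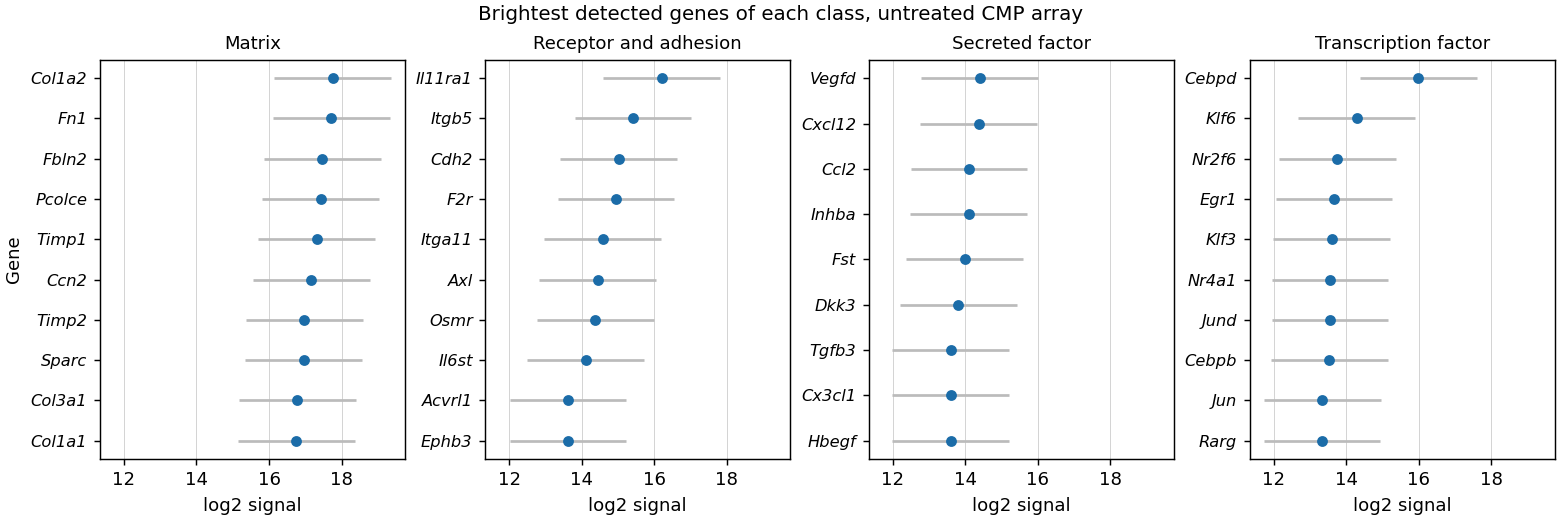
Log2 signal of the brightest detected genes (up to 10 each) among matrix, receptor and adhesion, secreted factor and transcription factor genes on the untreated CMP array. Bars are ± 1.61, the median SD between probes of the same gene; they overlap for nearly all neighbours, so the order within a panel is not settled.

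Matrix genes gave some of the highest signals on the array. Of 178 genes 130 were well above background, compared with 61.5% of all genes. The 10 brightest matrix genes lay between 16.75 and 17.75, from percentile 99.5 upward. Besides Col1a2, Fn1 and Fbln2, these were the procollagen enhancer Pcolce (17.42), the protease inhibitors Timp1 (17.31) and Timp2 (16.97), the matricellular Ccn2 (17.16) and Sparc (16.96), Col3a1 (16.78) and Col1a1 (16.75). Of 44 collagen chain genes 27 (61.4%) were well above background, about the share of all genes. Col6a1 (15.91) and Col5a1 (14.61) came after the chains of types I and III. The genes Col10a1, Col13a1, Col17a1, Col24a1 and Col26a1 were not well above background. Of 20 collagen processing genes 19 were well above background and 16 were in the top 25%, among them the collagen chaperone Serpinh1 (16.13) and Crtap (14.79), and the probes of the other gene disagreed. Of 31 matricellular and elastic fibre genes 28 were, and of 24 proteoglycan genes 19, led by decorin Dcn (14.83) and biglycan Bgn (14.75).

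Basement membrane genes were detected as well, with 20 of 23 well above background. The laminin chains Lamb1 (15.50), Lamc1 (14.68) and Lama4 (13.69) and the type IV collagens Col4a2 (14.48) and Col4a1 (14.42) were the brightest, and Lamc3 was dim. For proteases the shares lay a little under the 61.5% of all genes. Of 23 matrix metalloproteinases 12 (52.2%) were well above background, and 3 of the 10 dim ones had a probe with signal on another array. Mmp3 (13.65), Mmp23 (13.04), Mmp2 (12.87) and Mmp14 (11.52) were the brightest, and Mmp7, Mmp8, Mmp9 (1.57), Mmp12 and Mmp13 (1.31) were dim. The probe for Mmp9 was well above background on all 3 other arrays. Of 19 ADAMTS proteases 10 (52.6%) were well above background. All 4 TIMP inhibitors were well above background, though Timp4 (4.10) was faint beside the other three.

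Among 114 genes of secreted factors 71 were well above background, close to the 61.5% of all genes. The lymphangiogenic Vegfd (14.40), the chemokines Cxcl12 (14.37 from probes at 14.35 and 14.38) and Ccl2 (14.10), the activin chain Inhba (14.09) and its antagonist Fst (13.98) were among the brightest, followed by Dkk3, Tgfb3 (13.60), Cx3cl1 (13.60) and Hbegf (13.60). Of 52 growth factor genes 38 were well above background, and the exceptions included Fgf5, Fgf9, Fgf21, Igf2 (3.22), Bmp5 and Bmp7. In the Wnt list the secreted antagonists Dkk3 (13.80), Frzb (13.16), Sfrp1 (12.90) and Sfrp2 (11.02) were bright, as was the ligand Wnt5a (10.91), and Wnt3, Wnt3a, Wnt2b, Wnt6, Wnt7a and Wnt7b were dim. Of 31 chemokine and cytokine genes 15 were well above background. Ccl7 (12.68) and Cxcl5 (11.21) stood with Cxcl12, Ccl2 and Cx3cl1, whereas Ccl20, Cxcl2, Cxcl9, Cxcl13, Il1a and Il1b were dim.

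Genes of the cell cycle were bright in the untreated cells. Of 24 cell cycle genes 23 were well above background and 17 were in the top 25%, with a median percentile of 91.1. The D-type cyclins Ccnd1 (16.59), Ccnd2 (15.43) and Ccnd3 (14.63), the replication helicase subunit Mcm6 (14.85) and the replication clamp Pcna (13.97) were the brightest. Aurkb (2.12) was the exception, and its probe was dim on all 4 arrays. All 11 genes of Cdk inhibitors and senescence were detected too, with Cdkn2d (12.67), Cdkn2a (11.93 from probes at 9.86 and 14.01) and Cdkn2b (11.10) among the brightest. Of 18 interferon-stimulated genes 17 were well above background and 9 were in the top 25%, led by Bst2 (14.22), Isg15 (13.13) and Ifit3 (12.84). Gapdh, the glycolytic enzyme used as a reference in many studies, had 16.26 as the mean of 8 probes that ran from 13.92 to 17.95. Hif1a, the hypoxia factor, which the study names, had 7.17 from probes at 3.73 and 10.61.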

How the data were processed

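RNA from untreated CMPs and from OSKM-CMPs was labelled with Cy3 and hybridised to single-colour Agilent mouse arrays of 62976 spots. The deposited files give, per the file headers, processed Cy3 intensity after background subtraction by Feature Extraction 10.7.3.1 (the labels name 9.5.3). The authors' normalized table holds log2 values, which equalled the log2 processed signal minus a constant of 8.598 within 0.01 for 100.0% of probes.

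From these, 3671 control spots and 103 outlier spots of the untreated array were left out, and log2 signals were averaged over spots of 55681 probes, of which 56.6% were well above background. No spot was saturated. Probes were named from RefSeq (GRCm38.p6) by accession (26863), symbol (3752) or synonym (623), and 24443 were not named. Probe positions are those of the array design on mm9, and promoter windows are on GRCm38.p6. Precision was measured by the SD between spots of a probe, the SD between probes of a gene and the software's error model. With 1 array per condition, no error between cultures could be given. Cell type and pathway lists (41) and gene families (27) held 1162 genes. The genes named were the label's markers, the 20 brightest genes, the 5 brightest detected and up to 6 dim members of each list, the 10 brightest factors and receptors, and genes the study names. Members and lists were chosen with earlier results of these data known. The bounds at the top 25% and 10%, and a few genes outside the rule (mostly ones whose probes disagreed), were chosen after values were seen. Some genes of the lists are counted but not reported here by name. The averaging and calls were tested on simulated data. There all probes of a gene shared the same true signal, so the spread between probes was not covered. Alternatives were another detection call, any probe, the brightest probe, normexp correction, kept outliers, the files' own gene names and the authors' values. Python 3.11.15, numpy 2.4.6, pandas 2.3.3, matplotlib 3.10.9, R 4.3.3 and limma 3.58.1 were used.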

Additional observations from a re-analysis of the deposited data

How the results depend on the processing

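The count of genes well above background, 13675, was 15384 when any probe sufficed, 17305 with the software's weaker call of positive and significant signal, 16982 with the array files' own gene names and 13675 with outlier spots kept. With the weaker call, the counts rose to 16 of 22 leukocyte, 7 of 9 erythroid, 8 of 16 epithelial, 10 of 13 cartilage and 9 of 12 bone genes. The same call raised the count over all genes to 17305 of 22229. When any probe sufficed, epithelial genes and bone genes each came to 8. For the cadherins, claudins, keratins, Hoxc and Hoxd genes the counts with the weaker call stand beside the main ones. How often these lineages were detected therefore depends on the call, as it does for genes in general. Of 636 percentiles of named genes under the brightest probe or normexp correction, 626 moved by less than the spread between probes. The other 10 moved further when the brightest probe stood for the gene. That spread was 1.61 log2 units either way, and a gene with 1 probe has the same signal under the brightest probe. These counts therefore say little about how firm the order of genes is. For list medians the bound was narrower, as the spread was divided by the square root of the number of genes. Of 68 medians, 31 moved beyond that bound with the brightest probe and 7 with normexp correction. Gene signals after normexp correction correlated with the main ones at r = 0.963. Signals near background limit the calls, since 10.6% of detected genes had a signal under 32. No paired analysis was possible because with 1 array per condition there were no replicate numbers to share.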

Other observations

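Genes of the sex chromosomes gave faint values in the untreated CMPs, whose sex the labels do not state. Xist, the noncoding RNA of the inactive X chromosome, had a log2 signal of 6.55 from probes at 6.13 and 6.98, at percentile 51.3. Of 4 Y-linked genes, Eif2s3y had 5.70 and was well above background on this array but on no other, and Uty (1.46), Ddx3y (1.34) and Kdm5d (1.17) were not well above background.

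Probes without a gene name in RefSeq held a part of the signal that the description above leaves out. Of 24443 such probes 42.5% were well above background, compared with 67.6% of 31238 named probes, and 33 of the 100 brightest probes on the array were among them.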
